A study of Strongylocentrotus purpuratus with 8 samples.

Results

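Isolated methylated windows are stretches of 500 bp in which most CpG calls were methylated in 72 hpf embryos of the purple sea urchin, Strongylocentrotus purpuratus, while the windows on either side were almost unmethylated. They were chosen on the 72 hpf reads: 8 to 29 CpG sites listed in any library, 20 or more reads at 72 hpf and in adult tube feet, a level of 60% or more at 72 hpf, and both adjacent windows at 20% or less at 72 hpf with 20 or more reads each. The rule found 199 such windows among 636647 windows with the same limits on sites and reads. Of those 636647 windows, 156723 stood at 60% or more at 72 hpf, so the isolated windows made up 0.127% of the methylated windows. They made up 0.0649% of the 306748 windows whose neighbours were both at 20% or less.

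Methylation of cytosine in CpG dinucleotides is copied to the new strand at DNA replication by the maintenance methyltransferase Dnmt1, which acts on sites methylated on the old strand only. In sea urchins and many other invertebrates the genome is a mosaic. Long methylated tracts, many of them the bodies of transcribed genes, alternate with long unmethylated tracts. A short methylated stretch inside unmethylated DNA is therefore an exception to the usual layout.

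DNA methylation was measured by MethylC-seq, in which bisulfite converts unmethylated cytosines so that they are read as thymines. The groups were adult tube feet, which are locomotory appendages of the adult, and embryos at 24, 48 and 72 hours post fertilisation (hpf), all untreated and with 2 libraries each. The series describes the replicates as biological, and its labels name no strain, sex, adult age or number of embryos or animals per library. A level is the share of methylated reads among all reads at CpG sites. In DNA from many cells, a partial level can come from a share of the cells, of the alleles or of the animals, which cannot be told apart here. Coordinates are 1-based and belong to Spur3.1, the build of the files, and annotation was not used here.

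The libraries held 75377025 to 126381599 reads at CpG sites, with a median of 3 reads per site in 24 hpf replicate 2 and of 5 to 7 elsewhere. On unmethylated lambda phage DNA, 0.112% to 0.296% of reads were called methylated. 24 hpf replicate 2 stood apart, with a level of 42.2% over all sites against 24.2% to 29.8% in the other embryo libraries. The pooled 24 and 48 hpf share and the adult differences are therefore also given without it. A window level of 50% from 50 reads in 1 library has a 95% Wilson interval of 36.6% to 63.4%, and this covers counting error only. A read that spans several sites is counted at each, so the real error is wider.

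The 199 isolated windows were scattered. They lay on 186 scaffolds, of which 175 held 1, 9 held 2 and 2, Scaffold36 and Scaffold61, held 3. Their median number of CpG sites was 16 (quartiles 11 and 21). The median was 11 (quartiles 9 and 15) in 76127 embedded methylated windows, which met the same limits but had both neighbours at 60% or more at 72 hpf. Consecutive CpG sites were a median of 14 bp apart in isolated windows and 19 bp in embedded ones.

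The position of the 500 bp grid decided which windows were found. With the grid moved by 250 bp the rule found 207 windows, and 23 of them shared 250 bp with an isolated window, which is 11.1% of the 207 and 11.6% of the 199. Of the other isolated windows, 105 had no overlapping window of the moved grid at 60% or more with 20 reads at 72 hpf, 15 had 2 that were, and 56 had 1 that missed another limit.

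At 72 hpf, where they were chosen, 80 isolated windows stood at 60% to 70%, 48 at 70% to 80%, 50 at 80% to 90% and 21 at 90% or more. Among all 306748 windows with unmethylated neighbours, 99.0% were at 20% or less, 2854 lay between 20% and 60%, and 467 of these were above 40%. Windows in between thus outnumbered the isolated windows, which are the upper end of a continuous range of levels. Just inside the threshold, with 50 or more reads in every library, were Scaffold112_190001 at 61.0% and Scaffold79_588501 at 61.1%. Just outside were Scaffold364_8001 at 59.5% and Scaffold6_1478501 at 55.9%. The 4 windows stood at 53.3%, 79.6%, 0.224% and 53.0% in pooled adult reads, so values on both sides of the threshold ranged widely in the adult.

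The first question was whether the same windows were methylated at the earlier stages, in libraries that played no part in the choice. The median level was 63.7% and 81.5% in the 24 hpf replicates and 63.0% and 73.2% in the 48 hpf replicates, over 128 to 191 windows with at least 10 reads. In pooled 24 and 48 hpf reads, 124 of 197 windows (62.9%) with 20 or more reads stood at 60% or more, 70 lay in between and 3 stood at 20% or less. Without 24 hpf replicate 2, 112 of 195 (57.4%) stood at 60% or more, and with any other 1 of the 4 libraries left out the share was 60.6% to 69.7%. In embedded windows, 99.2% of 76082 stood at 60% or more in the same reads. Isolated windows were thus mostly methylated before 72 hpf, but less uniformly than methylated windows inside methylated DNA.

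Depth moved with this persistence. Of 47 windows with fewer than 40 reads at 72 hpf, 48.9% were at 60% or more at 24 and 48 hpf. This share was 51.6% of 62 windows with 40 to 79 reads, 67.4% of 43 with 80 to 159, and 88.9% of 45 with 160 or more. When windows were chosen on 72 hpf replicate 1 alone, 106 were found, and 57 of the 101 with 10 or more reads in replicate 2 stood at 60% or more there. When they were chosen on replicate 2 alone, 130 were found, and 59 of 120 stood at 60% or more in replicate 1. About as many windows therefore failed the level in the replicate not used as met it.

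No difference between 48 and 24 hpf was called. In 66 isolated windows with at least 20 reads in each library of 24 hpf, 48 hpf and adult tube feet, the quasi-binomial test gave 0 calls in either direction. The background was 0% of 377305 windows in each direction. Before adjustment 8 of the 66 p-values lay below 0.05, against 10248 of 377305 over all windows and 2075 of 55155 in embedded windows. Fitting log2 ratios of methylated to unmethylated reads with limma also gave 0 calls, and 5 unadjusted p-values below 0.05. The median difference, 48 minus 24 hpf, was -2.63 percentage points, against -1.77 points in embedded windows and 0 over all windows tested.

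**Figure D1:**
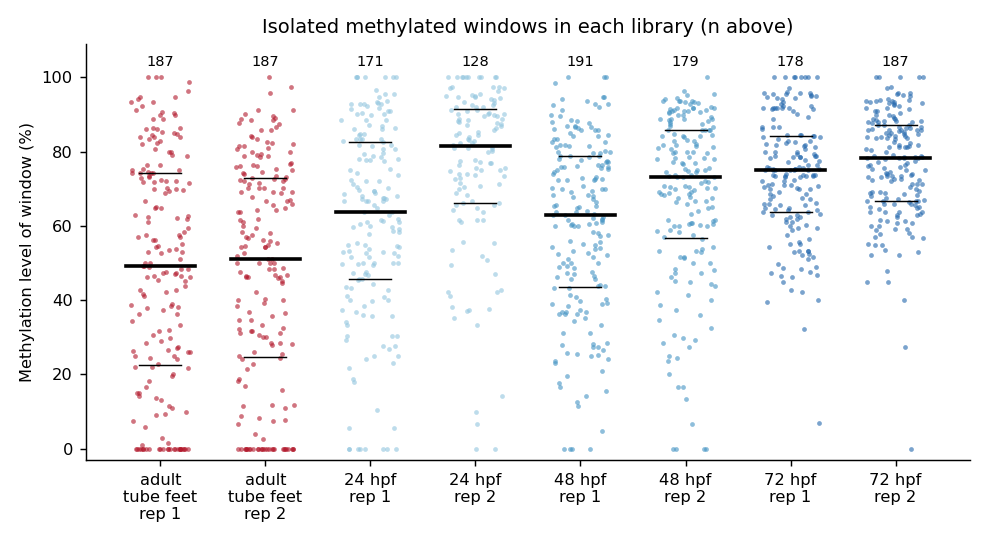
Methylation level (%) of isolated windows in each of the 8 libraries, with adult tube feet on the left. Each column shows the windows with at least 10 reads in that library. Points are windows, the thick line is the median, thin lines are quartiles and the number of windows stands above each column. Both adult medians, 49.3% and 51.1%, lie below the medians of all 24 and 48 hpf libraries, and a row of adult windows sits at 0.

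In adult tube feet the isolated windows spread over the whole range, from 0% to 98.8% in pooled reads. The median level was 49.3% and 51.1% in the adult replicates, against 63.0% to 81.5% in the 4 libraries of 24 and 48 hpf. Both adult libraries lay below all 4. The mean of the library medians was 50.2% ± 1.31 (SD, n = 2) in the adult and 70.4% ± 8.74 (SD, n = 4) at 24 and 48 hpf, a difference of -20.2 points (two-sided exact permutation test over 15 splits, p = 0.133). Without 24 hpf replicate 2 the difference was -16.5 points, and over the 96 windows with 10 or more reads in each of the 8 libraries it was -12.1 points. The smallest p this design allows is 0.0667, so it cannot pass 0.05. The windows were chosen to be high at 72 hpf, and the part of this choice in the difference was not tested. In 58 windows with 20 or more reads in every library, 72 hpf libraries correlated with those of 24 and 48 hpf at 0.277 to 0.601. With adult libraries they correlated at 0.0334 to 0.434. The 72 hpf replicates correlated with each other at only 0.175. All these correlations use 72 hpf levels whose range the choice had narrowed, and the size of that effect was not tested. The windows found on the moved grid gave the same direction, with a difference in median level, adult minus 24 and 48 hpf, of -15.7 points (two-sided exact permutation test, p = 0.133).

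In pooled reads the adult difference was larger at the low end of the levels. The lower quartile of isolated windows was 23.1% in the adult against 51.1% at 24 and 48 hpf, and the upper quartile 73.7% against 80.6%. Embedded windows had the same shape, with 66.4% against 82.7% and 88.1% against 91.1%. The share of windows at 20% or less was 23.5% and 23.0% in the adult replicates, against 7.6% and 3.91% at 24 hpf and 6.28% and 5.03% at 48 hpf. The difference of 17.6 points had the smallest p the exact permutation test can give, 0.0667. The share at 60% or more was 39.0% and 41.2% in the adult, against 55.6% and 82.8% at 24 hpf and 57.6% and 72.1% at 48 hpf, a difference of -26.9 points (exact permutation p = 0.133). Without 24 hpf replicate 2 the share at 20% or less differed by 16.96 points and the share at 60% or more by -21.6 points. Adjusted together by Benjamini-Hochberg, the exact permutation p of all 4 differences tested in this way was 0.133. The median of pooled adult levels rose with depth at 72 hpf. It was 36.1% in 47 windows with fewer than 40 reads and 62.6% in 45 with 160 or more. From the lowest to the highest depth, 31.9%, 16.1%, 23.3% and 13.3% of windows were at 20% or less in pooled adult reads. The part of depth in the adult levels was not tested.

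Of the 124 windows at 60% or more at 24 and 48 hpf, 60 were also at 60% or more in the adult, 49 lay in between and 15 were at 20% or less. Among the 75480 embedded windows at 60% or more at 24 and 48 hpf, these shares were 81.8%, 15.9% and 2.38%. In 26 isolated windows fewer than 5% of adult reads were methylated, and in 19 of them none was. At the other end, 30 isolated windows stood at 80% or more in the adult. In pooled reads, 83 of 197 windows were at least 20 points lower in the adult and 15 at least 20 points higher.

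The gap between isolated and embedded windows was tested as a difference of its own. The median of isolated windows minus that of embedded windows was -31.6 and -28.7 points in the adult replicates, against -25.2 and -8.30 points at 24 hpf and -23.6 and -14.6 points at 48 hpf. The gap was wider in the adult by a difference of -12.3 points on average, which did not pass (exact permutation p = 0.133). Without 24 hpf replicate 2 it was -9.06 points (exact permutation p = 0.2). Among windows with 10 or more reads in each of the 8 libraries the difference was -4.58 points (exact permutation p = 0.467), and with the window grid moved by 250 bp it was -7.86 points (exact permutation p = 0.2). In the main comparison, both adult libraries had a wider gap than every library of 24 and 48 hpf. The smallest p this test allows is 0.0667, so it could not pass whatever the size of the difference. Whether the adult loss was wider in isolated than in embedded windows was therefore not decided by this test.

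Of the 199 isolated windows, 66 passed the filter of 20 reads in each of 6 libraries and were tested one by one against 24 and 48 hpf together. The quasi-binomial test called 20 lower and 1 higher in adult tube feet. Over all 377305 windows tested, which entered whatever their level, 10.0% were called lower and 0.963% higher. Among tested embedded windows, which could fall as far, 11449 of 55155 (20.8%) were called lower. Among tested isolated windows the share called lower was 30.3%. The called falls of isolated windows had a median of -43.5 points and ranged from -75.8 to -23.2 points, against a median of -36.7 points in embedded windows called lower. The median difference over all tested windows of each set was -15.1 points in isolated windows, -5.70 points in embedded windows and -0.206 points over all windows. Without 24 hpf replicate 2, 31 of 94 isolated windows were called lower, against 56370 of 608498 over all windows. With either adult library left out, that group held 1 library, and fewer isolated windows and fewer of all windows were called lower.

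**Figure D2:**
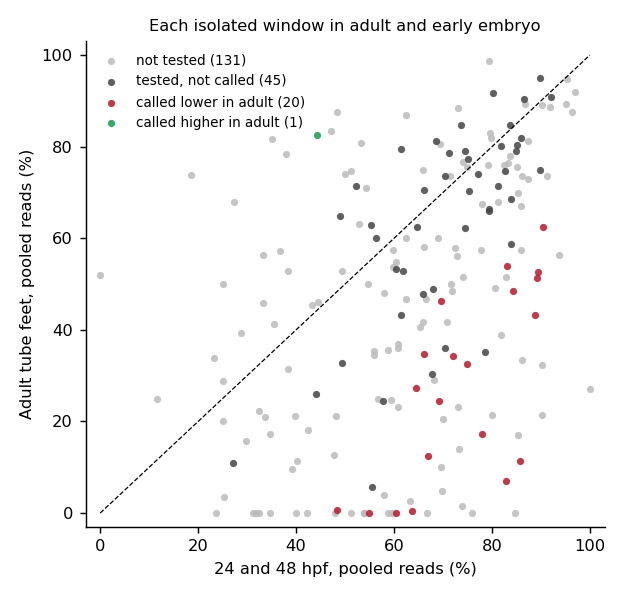
Level of each isolated window in pooled adult reads (vertical axis, %) against pooled 24 and 48 hpf reads (horizontal axis, %), for the 197 windows with 20 or more reads at 24 and 48 hpf. The dashed line marks equal levels; the 20 windows called lower in the adult lie below it, the 1 called higher lies above it, and windows with adult levels at 0 form the bottom row.

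The largest called falls with 50 or more reads in every library were at 4 windows. Scaffold1410_209001, at positions 209001 to 209500 of Scaffold1410 with 19 CpG sites, stood at 19.6% and 11.9% in the adult replicates, 72.2% and 70.8% in the 24 hpf libraries, 84.4% and 79.7% in those of 48 hpf, and 71.0% and 65.0% in those of 72 hpf. The difference of its adult level from 24 and 48 hpf was -60.6 points, with an adjusted p of 0.00024. Both adult libraries lay far below every embryo library. Scaffold2320_47501, at 47501 to 48000 of Scaffold2320 with 15 sites, stood at 46.6% and 39.1% in the adult, 87.3% and 82.4% in the 24 hpf libraries, 86.8% and 93.7% in those of 48 hpf, and 95.2% and 94.3% in those of 72 hpf. Adult minus 24 and 48 hpf came to -45.5 points (adjusted p = 0.000344), from at least 108 reads per library. Here the adult level was partial, not absent.

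Scaffold1488_220001, at 220001 to 220500 of Scaffold1488 with 24 sites, stood at 41.1% and 25% in the adult and between 72.3% and 78.0% in the 6 embryo libraries. Adult minus 24 and 48 hpf came to -42.3 points (adjusted p = 0.0016). Scaffold1872_24001, at 24001 to 24500 of Scaffold1872 with 26 sites, stood at 59.5% and 31.2% in the adult, 80.8% and 81.8% in the 24 hpf libraries, 86.7% and 92% in those of 48 hpf, and 75.2% and 83.8% in those of 72 hpf. Adult minus 24 and 48 hpf came to -35.7 points (adjusted p = 0.0103), and the adult replicates lay far apart. That the adult libraries did not overlap those of 24 and 48 hpf was a condition for naming these 4 windows.

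The 1 window called higher, named here after its values were seen, was Scaffold1476_105501, at 105501 to 106000 of Scaffold1476 with 10 sites. It stood at 89.9% and 72.5% in the adult, 34.1% and 38.1% in the 24 hpf libraries, 46.2% and 64.0% in those of 48 hpf, and 79.3% and 61.7% in those of 72 hpf, from 21 to 69 reads. The difference from 24 and 48 hpf was 38.1 points, with an adjusted p of 0.0171. Its left neighbour stood at 77.8% in 27 adult reads, against 0.980% in 102 reads at 24 and 48 hpf, so the window was no longer isolated in the adult.

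Some isolated windows held their level in every library. The highest lowest level was that of Scaffold693_111001, at 111001 to 111500 of Scaffold693 with 23 sites, which stood at 93.3% and 89.7% in the adult, 88.6% and 92% in the 24 hpf libraries, 92.7% and 93.3% in those of 48 hpf, and 95.7% and 94.0% in those of 72 hpf. Scaffold2568_31001, at 31001 to 31500 of Scaffold2568 with 16 sites, stood at 85.4% and 83.9% in the adult and between 81.6% and 91.4% in the embryo libraries. Its neighbours were at 0% and 0.826% in the adult and at 0% and 12.4% at 24 and 48 hpf. This window was methylated and isolated in the embryo and in the adult. Scaffold2674_52001, at 52001 to 52500 of Scaffold2674 with 14 sites, stood at 83.5% and 80% in the adult and between 74.6% and 92.3% in the embryo libraries. Its left neighbour, however, stood at 96.4% in 84 adult reads and at 20.5% at 24 and 48 hpf. Scaffold12_206001, at 206001 to 206500 of Scaffold12 with 19 sites, was at 73.2% and 76.0% in the adult, below its embryo range of 86.9% to 94.1%, and the difference of -14.8 points was not called (adjusted p = 0.0532).

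The windows with the most reads or the most sites were intermediate rather than full. Scaffold475_316001, at 316001 to 316500 of Scaffold475, had the most reads of the well covered windows and 28 sites. It stood at 74.4% and 75.2% in the adult, 71.4% and 89.8% in the 24 hpf libraries, 72.7% and 84.4% in those of 48 hpf, and 67.6% and 66.4% in those of 72 hpf. Scaffold112_190001, at 190001 to 190500 of Scaffold112, also with 28 sites, stood at 62.6% and 45.1% in the adult, 49.7% and 64.9% in the 24 hpf libraries, 52.1% and 69.6% in those of 48 hpf, and 66.0% and 54.9% in those of 72 hpf. Scaffold118_270501, at 270501 to 271000 of Scaffold118, the next in reads, had 20 sites and ranged from 54.7% to 82.5% over the 8 libraries. In these 3 windows the adult and embryo libraries overlapped.

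The 2 scaffolds with 3 members held both well read and thinly read windows. On Scaffold36, Scaffold36_529501 had 8 and 28 reads at 72 hpf, all methylated, against 26.3% and 0% in the adult and 11.1%, 71.4%, 12.5% and 44.8% in the libraries of 24 and 48 hpf. Scaffold36_649501 was partial in every library, with 43.9% to 76.9%, and Scaffold36_945001 stood at 62.9% to 88.9%. On Scaffold61 the lowest read number of a library was 8 in Scaffold61_462501 and 0 in Scaffold61_955501 and Scaffold61_1108001.

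Replicates differed more in isolated windows than in embedded ones. Among 58 isolated windows with 20 or more reads in every library, the median absolute difference between replicates was 5.89 points in the adult, 9.93 at 24 hpf, 7.06 at 48 hpf and 6.45 at 72 hpf. In 54406 embedded windows it was 4.41, 3.91, 3.33 and 3.25 points. The isolated windows had fewer reads, with a median of 94 per library against 126. Over windows with 10 or more reads in a library, their median level was also lower in every library. Both sets were chosen on the 72 hpf libraries. The parts of depth, level and choice in this difference were not tested. The range over the 8 libraries had a median of 38.4 points in isolated and 17 points in embedded windows.

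Across these 58 windows, the 2 adult libraries ordered the windows alike, with Pearson's r = 0.846. Adult and 24 or 48 hpf libraries correlated at 0.0859 to 0.346. Libraries of 24 and 48 hpf correlated with each other at 0.624 to 0.671 without 24 hpf replicate 2, and at 0.146 to 0.405 where it was 1 of the pair. These are descriptions over windows that share their libraries and read depth. The order of the windows was therefore closer between the 2 adult libraries than between any adult library and any library of 24 or 48 hpf.

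The methylated stretch inside a window was then read site by site at 24 and 48 hpf and in the adult, whose levels the choice did not use, although it required 20 adult reads. In 24 and 48 hpf reads, 156 of 174 windows with 5 or more covered sites held a run of 2 or more consecutive sites at 50% or more, and 3 held single such sites. Over these 159, the longest run had a median of 8 sites (quartiles 5 and 13) and spanned a median of 163 bp (quartiles 73.5 and 285). In 55 of the 174 windows every covered site was at 50% or more, and in 35 of the 159 the run continued past the edge of the window. The span exceeded 500 bp in 10. In the adult 99 of 142 windows held a run of 2 or more sites and 9 held single ones, and over these 108 the median run had 6 sites and spanned 93 bp.

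Single sites were often partial. Of 1581 sites in isolated windows with 10 or more pooled reads at 24 and 48 hpf, 45.1% were at 80% or more, 49.7% lay between 20% and 80% and 5.19% were at 20% or less. In embedded windows these shares were 80.9%, 17.4% and 1.71%. In the adult, 29.2% of 828 sites in isolated windows were at 80% or more, 45.2% lay in between and 25.6% were at 20% or less. At 24 and 48 hpf, partial sites were thus at least as frequent as nearly full ones.

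**Figure D3:**
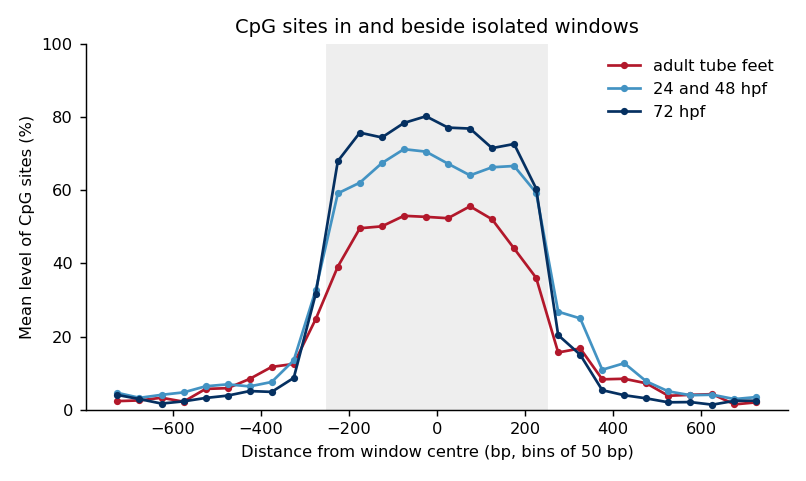
Mean level (%) of CpG sites with 5 or more pooled reads in bins of 50 bp around the centre of the 199 isolated windows, which span the grey band. Lines stand for adult tube feet, 24 and 48 hpf, and 72 hpf. The adult line runs between 36.1% and 55.6% inside the band, below both embryo lines, and all lines fall to low levels within 200 bp of its edges.

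The borders of the stretches were poorly resolved. At 72 hpf, the last methylated site of a run and the next covered site outward lay a median of 249.5 bp apart over 320 borders of 168 windows. This distance was over 200 bp at 59.1% of the borders and 50 bp or less at 18.4%. For scale, consecutive covered sites in the adjacent windows were a median of 17 bp apart. At 55.3% of the 72 hpf borders, 3 or more CpG sites listed in some library lay in the gap without 5 reads at 72 hpf. In 24 and 48 hpf reads the median distance was 148 bp, and 31.4% of 341 borders were resolved to 50 bp or less. For a large part of the windows, the change from methylated to unmethylated DNA therefore fell in a stretch that was hardly read.

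**Figure D4:**
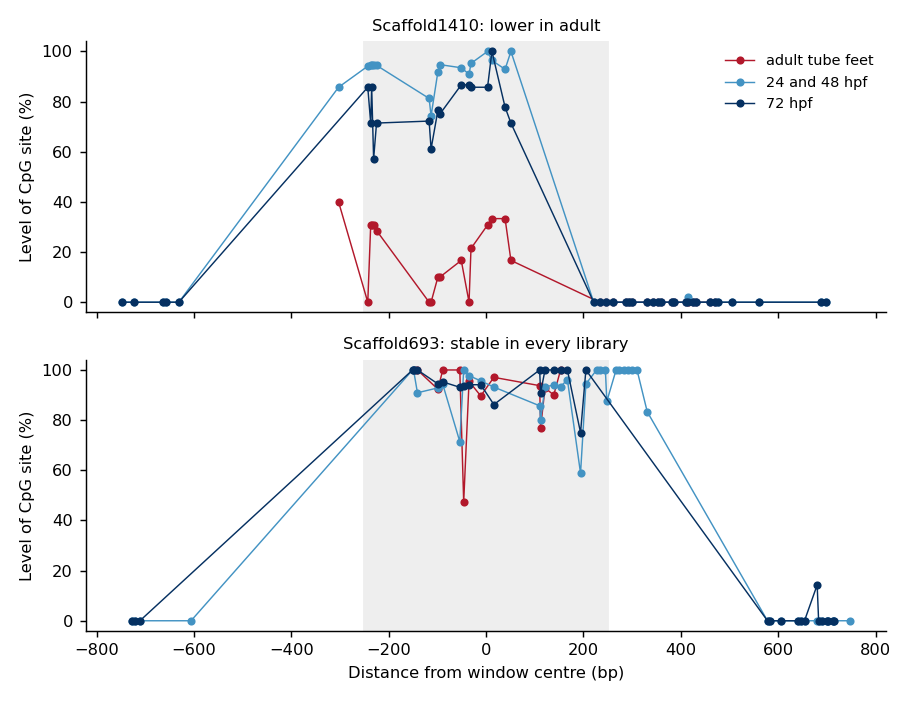
Level (%) of single CpG sites with 5 or more pooled reads in and beside Scaffold1410_209001 (top), which was lower in the adult, and Scaffold693_111001 (bottom), against the distance from the window centre in bp. The grey band is the window. In the top panel adult sites reach at most 33.3% inside the window, and in the bottom panel sites right of the window are methylated at 24 and 48 hpf where 72 hpf and adult reads give no value.

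The pair of examples in the plot of single sites shows both situations. In Scaffold1410_209001, 15 of 19 covered sites were at 80% or more at 24 and 48 hpf and none of 18 was in the adult, while 26 of 27 covered sites in the adjacent windows were at 20% or less at 24 and 48 hpf. In Scaffold693_111001, 12 of 14 covered sites were at 80% or more in the adult and 20 of 22 at 24 and 48 hpf. Of 25 covered sites in its adjacent windows, 7 were also at 80% or more at 24 and 48 hpf. The run of methylated sites there spanned 484 bp and crossed the right edge of the window. The adjacent sites had no adult value, so isolation could not be examined in the adult at that window.

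The neighbours stayed at 20% or less at most of the windows that could be examined, but the complete pattern held in a minority of them. Both neighbours had 20 or more reads at 24 and 48 hpf in 195 windows, and in 151 of these both were at 20% or less. In 88 windows the complete pattern, 60% or more between neighbours at 20% or less, was present at 24 and 48 hpf. In the adult, both neighbours had 20 or more reads in 135 windows and were both at 20% or less in 107. The complete pattern was present in 32 of them. A neighbour at 60% or more was seen at 7 windows in the adult and at 4 at 24 and 48 hpf.

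Farther out, methylated DNA was more common near isolated windows than near other windows with unmethylated neighbours. Another window at 60% or more at 24 and 48 hpf, with 4 or more CpG sites and 20 or more reads, lay within 2500 bp of 50 isolated windows (25.1%) and within 5000 bp of 80 (40.2%). Among all 306748 windows with unmethylated neighbours these shares were 4.52% and 11.2%, and the difference was not tested. The mean level at a distance of 5000 bp was 18.9% and 14.3% in the adult and 18.9% and 20.6% at 24 and 48 hpf, on the left and right. In embedded windows it was 61.5% and 61.3% in the adult, and 73.2% and 72.8% at 24 and 48 hpf. Isolated windows therefore lay mostly in unmethylated surroundings, with methylated DNA within reach of a part of them.

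**Figure D5:**
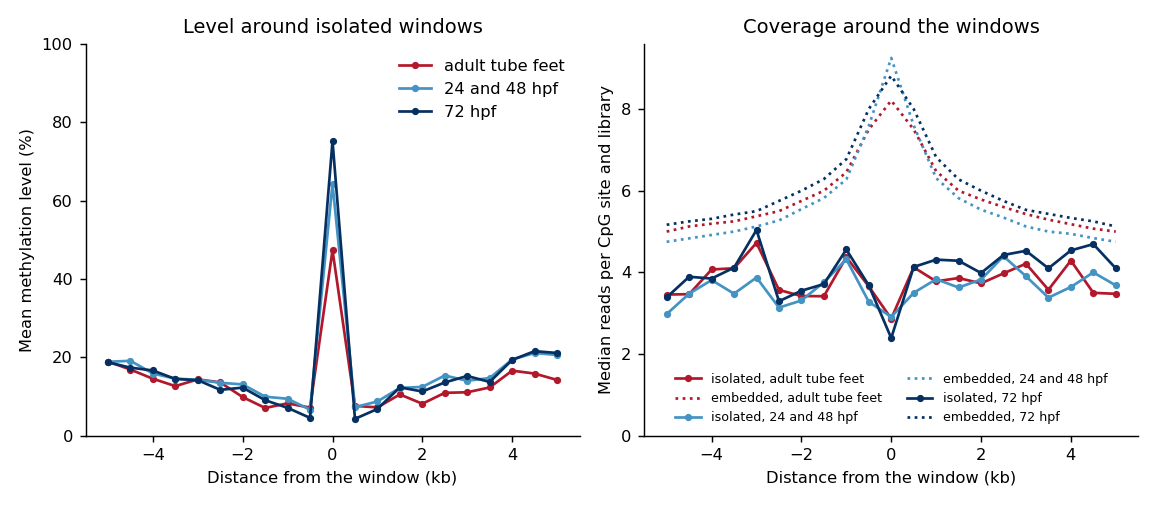
Mean methylation level (%, left) and median reads per CpG site and library (right) in windows from 5 kb left to 5 kb right of the isolated windows, for adult tube feet, 24 and 48 hpf, and 72 hpf; dotted lines on the right give embedded windows. The level peaks at the isolated window at 47.4% in the adult and 64.3% at 24 and 48 hpf, while the coverage of isolated windows dips there and that of embedded windows peaks.

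Coverage was low exactly at the isolated windows. Their reads per CpG site were a median of 0.645 and 0.683 times those of their own neighbours in the adult libraries, 0.592 and 0.865 in those of 24 hpf, 0.618 and 0.750 in those of 48 hpf, and 0.601 and 0.625 in those of 72 hpf. In embedded windows the ratio was 1.02 to 1.125 in the 8 libraries. Summed over all libraries, isolated windows had a median of 23.4 reads per site, embedded windows 72.4, and all windows with unmethylated neighbours 55.9. At 72 hpf 47.0% of the sites of isolated windows had 5 or more pooled reads, against 60.2% in their neighbours. The depth dip was present in every library, and its part in the levels and in the choice of the windows was not tested.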

How the data were processed

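The authors deposited 1 table of CpG calls per library with counts of methylated and unmethylated reads, not normalized, and a level in percent cut to a whole number. MethylDackel made the calls from merged, sorted and deduplicated alignments to Spur3.1 scaffolds and merged each CpG, per the file headers. The submitters' processing notes also name Trimmomatic and Picard; the aligner is not given in the sources used here. The percent column was only checked against the counts.

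Reads were summed in 500 bp windows without lambda. The rule, the windows and the tests were chosen with earlier results of these data known, and the 72 hpf libraries, which chose the windows, were left out of every test. A quasi-binomial model was fitted to each window with 4 or more CpG sites and 20 or more reads in each of 6 libraries. For the adult contrast it had 1 mean for the adult and 1 for 24 and 48 hpf, so the difference between these stages counts as spread. The 48 minus 24 hpf contrast had 1 mean per group. The dispersion was moderated with limma 3.58.1 (squeezeVar in R 4.3.3, log mean coverage as trend, lower bound 1). A p of 1 was set where the mean level was below 2.5% or above 97.5%. Calls needed a Benjamini-Hochberg adjusted p below 0.05 over all windows and 20 points between pooled levels. The scripts were tested on simulated data. Values per library were compared by two-sided exact permutation tests over samples. Windows named by rule had 50 or more reads in every library. They were the largest called falls, the highest lowest levels, those nearest the threshold, and those with most sites or reads. A called fall was named only if its adult libraries did not overlap those of 24 and 48 hpf. No called rise had 50 or more reads in every library. The windows of the scaffolds with most members were named whatever their reads, and Scaffold1476_105501 after its values were seen.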

Additional observations from a re-analysis of the deposited data

How the results depend on the processing

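The adult differences in the median level, in the shares at 60% or more and at 20% or less, and in the gap to embedded windows kept their sign under all 15 alternatives each, although none can pass 0.05 with these sample numbers. The alternatives were single libraries left out, equally weighted sites, other limits on level, neighbours and reads, and the moved grid. Others were windows chosen on 1 replicate of 72 hpf and the replicate block. The block left the differences themselves unchanged. Both adult libraries lay beyond every library of 24 and 48 hpf in each measure, so leaving 1 library out could not change a sign. A further alternative, 10 or more reads in each of the 8 libraries, was chosen after the data had been seen. The share of windows at 60% or more in pooled 24 and 48 hpf reads was 57.4% to 69.7% with 1 library left out, also chosen after the data had been seen. The number of windows was 71 at a level of 80% or more, 123 with neighbours at 10% or less, and 85 at 40 reads. Windows called lower in the adult numbered 11 of 35 tested at 40 reads per library, against 21264 of 222696 over all windows. With 1 library of 24 or 48 hpf left out they numbered 18 to 31, the highest without 24 hpf replicate 2. These settings called 34893 to 56370 of all windows lower. Fewer were called lower with an adult library left out. Windows called higher numbered 2 of 102 at 10 reads and 0 of 35 at 40 reads. Over all windows the counts were 5657 of 551577 and 2033 of 222696. With 1 library of 24 or 48 hpf left out, 0 to 3 isolated windows were called higher, against 3215 to 7677 of all windows. The cause of these differences in number was not tested. With the replicate block, limma called 21 windows lower and 1 higher, against 20 and 1 without it, and for the 4 differences the exact permutation p was 0.111 each. The deviations of same-numbered libraries correlated at 0.251 between 48 and 24 hpf but at 0.00136 and -0.00242 between the adult and either stage. Replicate numbers thus gave no sign of pairing between adult and embryo libraries. What same-numbered libraries of 48 and 24 hpf shared was not tested. With the replicate block 0 windows were called between 48 and 24 hpf.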

Other observations

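The adult level was set beside 2 features of the isolated windows. The choice limited the number of CpG sites, and the 72 hpf libraries that made it also gave the methylated windows nearby. The 76 windows with another methylated window within 5000 bp at 72 hpf had a median of 58.2% in the adult and 73.1% at 24 and 48 hpf, and the 121 without one had 46.7% and 63.7%. At 20% or less in the adult were 13 of the 76 and 28 of the 121. By the number of CpG sites, the medians were 52.9%, 49.0% and 50.8% in the adult for windows of 8 to 11, 12 to 17 and 18 to 29 sites, and 62.5%, 68.1% and 68.8% at 24 and 48 hpf. These splits were not tested.

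Isolated windows lay on shorter scaffolds, with a median span between the first and last listed CpG site of 387633 bp, against 500583 bp for embedded windows and 486049 bp for all windows with unmethylated neighbours. Within 5000 bp of the first or last listed CpG site of a scaffold lay 14 of 199 isolated windows (7.04%), against 3.37% of embedded windows and 3.61% of all windows with unmethylated neighbours. Neither difference was tested. The 3100 border windows, with 1 neighbour at 60% or more and the other at 20% or less at 72 hpf, stood between the 2 kinds. Their median level was 79.0% and 77.5% in the adult replicates and 82.8% to 88.2% in the libraries of 24 and 48 hpf, and their median coverage was 44.1 reads per site over all libraries.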
